A study of Mus musculus with 22 samples.

Results

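The genes described here encode 9 proteins that hold and manage maternal mRNA in the growing mouse oocyte: Ybx2, Zar1, Zar1l, Cpeb1, Dazl, Eif4enif1, Ddx6, Lsm14b and Patl2. They were chosen by name and matched by symbol to the gene identifiers of the table. No rule on their measured values was used, but earlier results of these data were known. All 9 were found among its 52636 GENCODE M15 genes, and all 9 passed the filter on low counts in every fit.

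The data are RNA-seq profiles of 22 samples of fully grown, germinal vesicle (GV) stage oocytes of strain C57BL/6, made in 2 sequencing runs from mice that lack the small RNA pathways of the oocyte to different degrees. The single-end run held Dicer WT/WT (wild type, n = 3), Dicer ΔMT/WT (n = 1), Dicer ΔMT/ΔMT (n = 4) and Dicer SOM/SOM (n = 3), with no age in the labels. The paired-end run held 4 genotypes that each carried at least 1 Mili DAH and 1 Dicer SOM allele. These were the heterozygous control (Dicer SOM/WT with Mili DAH/WT, n = 4, aged 36, 38, 10 and 17 weeks), the RNAi mutant (Dicer SOM/SOM with Mili DAH/WT, n = 2, aged 17 and 13 weeks), the piRNA mutant (Dicer SOM/WT with Mili DAH/DAH, n = 1, aged 16 weeks) and the double mutant (Dicer SOM/SOM with Mili DAH/DAH, n = 4, aged 40, 35, 11 and 11 weeks). The ΔMT allele lacks the main retrotransposon-derived promoter of the truncated oocyte isoform of Dicer. The paper describes a further retrotransposon insertion in the same intron, kept in ΔMT, that can also drive a truncated Dicer. The SOM allele can express only the full-length somatic isoform, and DAH is a catalytic mutation of the piRNA-binding protein MILI. The alleles are germline changes carried by all cells of the animal, and the labels do not say whether samples of a group came from separate animals, so p-values measure only the spread between these samples.

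A fully grown oocyte is transcriptionally silent, and the meiotic divisions and the first steps of embryonic development run on mRNAs that were made earlier and kept stable and untranslated. RNA-binding proteins coat these mRNAs, block the cap-binding machinery or keep the poly(A) tails short, and release or destroy them at meiotic maturation. The genes below are grouped by these roles. In bulk samples of oocytes, as here, fewer cells with an mRNA and less of it per cell cannot be told apart.

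Single-end libraries had total counts of 6468380 to 90713013, and paired-end libraries had 22928936 to 43540806. The library of lowest depth was Dicer SOM/SOM replicate 3, in which the members still had between 273 and 4986 counts. Dicer1, the targeted gene, was at 42.2% to 52.6% of the wild type mean in Dicer ΔMT/ΔMT, at 4.10% to 5.37% in Dicer SOM/SOM, and at 8.31% to 9.71% of the control mean in the RNAi and double mutants. The summed level of 10 oocyte markers lay between 11308 and 14834 CPM (read counts scaled to a common library size) over all libraries, and that of 10 granulosa cell markers between 80.4 and 149 CPM. Among the granulosa genes, Nr5a2 (38.4 to 92.6 CPM), Inhba (6.12 to 45.1 CPM) and Cyp19a1 (at most 25.1 CPM) were the highest, Inha reached 10.5 CPM, and Amh and Foxl2 did not exceed 2.59 and 1.21 CPM in any library. Among blood cell genes, the hemoglobin genes Hba-a1 and Hbb-bs did not exceed 0.133 and 0.0984 CPM.

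The promoter table of RefSeq (build GRCm38.p6) held 8 of the 9 members. Shown are the 250 bases before the start site of 2 genes that were lower in Dicer SOM/SOM of the single-end run, Cpeb1 and Lsm14b, and of Zar1l, which was not called there. Zar1, also lower, is not printed because its RefSeq start lies 170 bases inside the gene model of the table, so that part of the stretch is transcribed in that model. Capitals mark every CANNTG (the E-box, to which basic helix-loop-helix factors bind) and every TAATTG or its reverse complement CAATTA (a core that homeodomain proteins such as the oocyte factor NOBOX recognize). Both strands were searched, and no copy of one motif overlapped the other. The Cpeb1 stretch lies at chr7:81454759-81455008 on the minus strand, that of Lsm14b at chr2:180024737-180024986 on the plus strand and that of Zar1l at chr5:150518160-150518409 on the minus strand.
Cpeb1: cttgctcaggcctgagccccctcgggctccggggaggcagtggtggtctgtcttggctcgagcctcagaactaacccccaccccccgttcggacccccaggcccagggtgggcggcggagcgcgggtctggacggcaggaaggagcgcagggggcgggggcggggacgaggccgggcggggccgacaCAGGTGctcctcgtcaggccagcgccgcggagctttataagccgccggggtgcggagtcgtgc
Lsm14b: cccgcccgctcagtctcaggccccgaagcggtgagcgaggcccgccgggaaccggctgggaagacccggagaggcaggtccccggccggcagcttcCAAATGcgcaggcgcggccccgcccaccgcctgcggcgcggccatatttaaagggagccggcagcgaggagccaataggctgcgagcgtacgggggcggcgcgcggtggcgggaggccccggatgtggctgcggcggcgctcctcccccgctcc
Zar1l: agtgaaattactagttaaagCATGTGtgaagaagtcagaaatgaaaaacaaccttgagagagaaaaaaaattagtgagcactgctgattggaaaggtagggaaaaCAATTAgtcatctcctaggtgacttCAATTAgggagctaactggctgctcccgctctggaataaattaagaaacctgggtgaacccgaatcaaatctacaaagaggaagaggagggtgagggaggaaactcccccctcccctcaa
The first 2 are rich in CpG, with 25 and 34 CG steps, more than 89.3% and 96.5% of the 32851 promoters held. The Zar1l stretch has 2 CG steps, and 18.8% of promoters have fewer. It holds 2 copies of CAATTA, a motif found in either orientation in 7.17% of promoters, and 1 E-box, a motif found in 66.2%. Cpeb1 and Lsm14b hold 1 E-box each and no TAATTG. The CpG content did not divide the called members from the others, since the stretch of Zar1 has 9 CG steps and 2 E-boxes, while those of Dazl and of the upstream starts of Eif4enif1 and Ybx2, not called in SOM/SOM against wild type, have 20, 21 and 35 CG steps.

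CPEB1 binds the cytoplasmic polyadenylation element, a U-rich signal near the end of dormant mRNAs. TTTTAT or TTTTAAT was found in the last 100 bases of the principal transcript (GENCODE M21) of 1 of the 9 members. It was found in 16.5% of 21743 protein-coding genes and in 5 of 12 mRNAs listed here as stored and translated at maturation. The member was Ybx2, and the 30 bases around the element, on the plus strand at chr11:69941538-69941567, show it in capitals.
Ybx2: aagccaTTTTATgaactgtcatgtgccacc
A poly(A) signal, AATAAA or ATTAAA, was found in the same stretch of 8 of the 9 members. A match describes the letters in this window only. Other spellings, bases farther from the end and other transcripts were not searched, so a missing match does not show that the element is absent. Some mRNAs of the stored list also had no match, among them Mos, Ccnb1 and Tpx2.

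Per kilobase of exon, the members spanned a wide range in control oocytes. In wild type, Zar1 stood highest with 363 ± 8.02 RPKM (CPM divided by the exon length in kilobases, SD, n = 3), followed by Cpeb1 with 299 ± 15.2 RPKM and Lsm14b with 297 ± 12.8 RPKM, whose samples overlapped. The next members were Eif4enif1 (230 ± 3.49 RPKM), Zar1l (152 ± 7.19 RPKM), Dazl (127 ± 3.73 RPKM) and Ybx2 (91.2 ± 10.8 RPKM), each apart from its neighbors in the order. Patl2 (16.2 ± 2.34 RPKM) and Ddx6 (8.37 ± 1.53 RPKM) were the lowest members, below Ybx2 in every wild type library.

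The heterozygous controls of the paired-end run gave nearly the same order. Zar1 was again highest at 397 ± 99.3 RPKM (n = 4), and Patl2 (15.5 ± 5.09 RPKM) and Ddx6 (12.8 ± 2.83 RPKM) again lowest, now with overlapping samples. Eif4enif1 (240 ± 44.3 RPKM) overlapped with both Cpeb1 (304 ± 21.8 RPKM) and Lsm14b (226 ± 44.6 RPKM), and Dazl (164 ± 12.3 RPKM) with Zar1l (137 ± 32.2 RPKM). Ybx2 was at 62.9 ± 6.96 RPKM. Exon lengths were taken from the table and ran from 895 bases in Zar1l to 6065 in Ddx6, and no member shared exon bases with another gene.

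**Figure D1:**
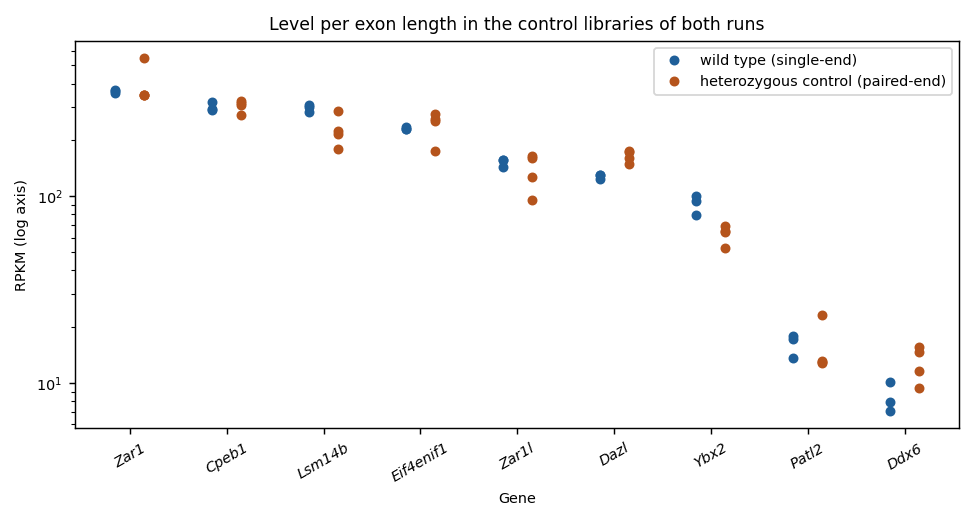
Level per exon length (RPKM, log axis) of the 9 genes in the wild type libraries of the single-end run (blue, n = 3) and the heterozygous controls of the paired-end run (orange, n = 4), 1 point per library. Genes are ordered by the wild type mean, from Zar1 at 363 RPKM to Ddx6 at 8.37 RPKM.

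The comparison of Dicer SOM/SOM with wild type asked what changes when only the full-length Dicer is made. Zar1, Cpeb1 and Lsm14b were lower and Ddx6 was higher, by 0.32 to 0.74 on the log2 scale. The tests were edgeR quasi-likelihood tests over all genes of a run, called at an adjusted p under 0.05. The 4 members called, of 9, stand beside 28.6% of the 23151 genes tested in this comparison. The median log2 fold change of the members was -0.17, against 0.02 for all genes.

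Zar1, whose zinc finger protein binds the 3′ ends of maternal mRNAs and gathers them around mitochondria, was at 528.7, 506.4 and 522.1 CPM in the 3 wild type libraries and at 416.4, 407.4 and 305.6 CPM in the 3 Dicer SOM/SOM libraries. The groups did not overlap, and SOM/SOM replicate 3, the shallow library, was the lowest. The log2 fold change was -0.46 ± 0.12 (SE, adjusted p = 0.0147), and -0.33 without that library (adjusted p = 0.0161). Its paralog Zar1l lay at 139.2, 139.7 and 128.2 CPM in wild type and at 130.1, 97.75 and 132.6 CPM in SOM/SOM, with overlapping samples and a log2 fold change of -0.17 ± 0.12 (adjusted p = 0.299).

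Cpeb1 was at 907.1, 903.4 and 987.2 CPM in wild type and at 687.5, 849.4 and 692.3 CPM in SOM/SOM, again without overlap. Its log2 fold change of -0.32 ± 0.09 had an adjusted p of 0.0230. The call was lost without wild type replicate 3 (-0.29, adjusted p = 0.0745) and without SOM/SOM replicate 1 (-0.27, adjusted p = 0.0748), and in a fit of the 2 groups alone (-0.31, adjusted p = 0.0869), and the direction was kept in all 3.

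Lsm14b, an LSM-domain protein of the oocyte's mRNA particles, was at 863.5, 891.9 and 818.4 CPM in wild type and at 620.4, 638.7 and 539.2 CPM in SOM/SOM. Every SOM/SOM library was below every wild type library, with a log2 fold change of -0.51 ± 0.09 (adjusted p = 0.00166). No library was needed for the call, since the adjusted p stayed between 0.00250 and 0.00831 when each was left out in turn.

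Ddx6, the DEAD-box helicase that represses translation and nucleates processing bodies in somatic cells, was the called member that went up. It was at 61.05, 43.09 and 48.16 CPM in wild type and at 94.95, 82.55 and 75.53 CPM in SOM/SOM. All 3 SOM/SOM libraries were above the wild type range, and the log2 fold change was 0.74 ± 0.21 (adjusted p = 0.0225). The call was lost without wild type replicate 2 (0.64, adjusted p = 0.0868), wild type replicate 3 (0.70, adjusted p = 0.0719) or SOM/SOM replicate 1 (0.64, adjusted p = 0.0719).

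Dazl, the germ cell RNA-binding protein that activates translation of stored mRNAs during maturation, was at 379.2, 380.6 and 361.0 CPM in wild type and at 295.0, 287.5 and 317.7 CPM in SOM/SOM. The groups did not overlap, but the log2 fold change of -0.31 ± 0.12 did not pass the test (adjusted p = 0.0658). It passed with DESeq2 (-0.32, adjusted p = 0.0408).

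The libraries of SOM/SOM replicates 1 and 3 also had more Gm42418, taken here as a marker of ribosomal RNA reads. They were at 12720 and 17280 CPM, against 4760 to 7569 CPM in the other 9 libraries of the run. SOM/SOM replicate 2, at 4760 CPM of Gm42418, lay below every wild type library for Zar1, Cpeb1, Lsm14b and Dazl and above every one for Ddx6. For these genes the genotypes did not overlap, so any SOM/SOM library had to lie there. The part of Gm42418 in these changes was not tested.

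The other 3 members did not pass the test and their samples overlapped. Ybx2, the germ cell Y-box protein that coats and stabilizes maternal mRNA, ranged from 143.3 to 180.9 CPM in wild type and from 136.8 to 204.3 CPM in SOM/SOM (log2 fold change -0.03 ± 0.16, adjusted p = 0.904). Eif4enif1, also known as 4E-T, which binds the cap-binding protein eIF4E and keeps it from initiating translation, ranged from 935.5 to 960.7 CPM and from 717.3 to 953.1 CPM (-0.16 ± 0.10, adjusted p = 0.255). Patl2, the oocyte member of the Pat1 family, ranged from 32.99 to 43.56 CPM and from 39.28 to 65.98 CPM (0.41 ± 0.22, adjusted p = 0.193). 

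**Figure D2:**
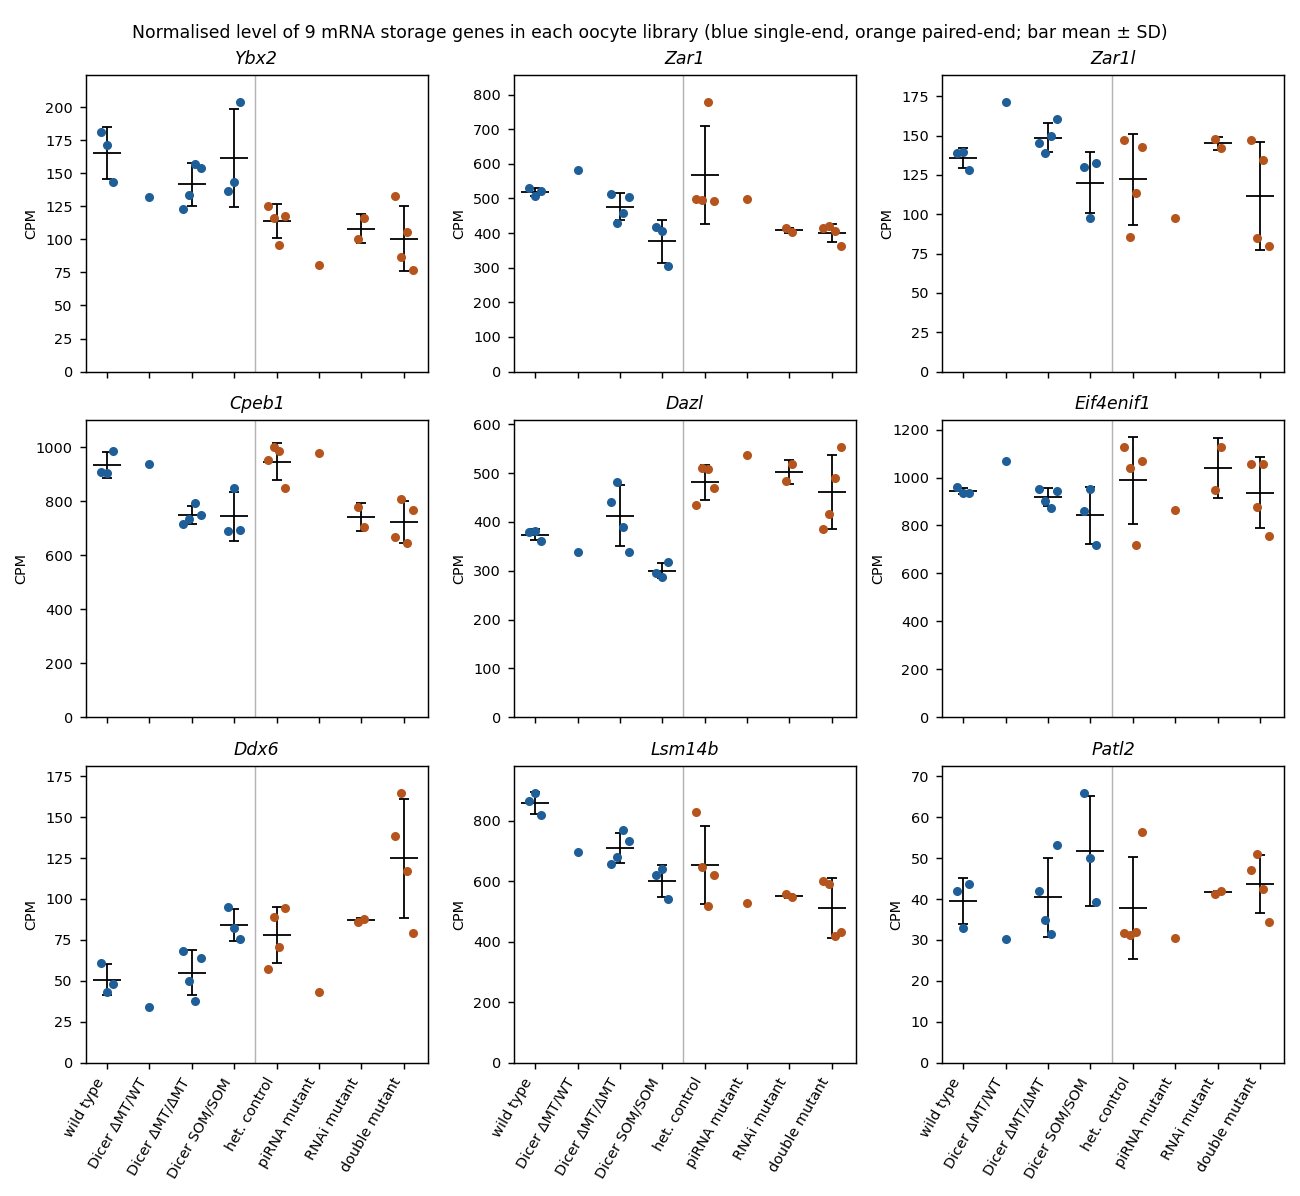
CPM (axis from 0) of each gene in every library, grouped by genotype, with the single-end run in blue and the paired-end run in orange. Points are libraries and bars give mean ± SD for groups with more than 1 library. Zar1, Cpeb1 and Lsm14b were lower in Dicer SOM/SOM than in wild type and Ddx6 was higher, and Zar1 in the heterozygous controls holds 1 library at 779.8 CPM.

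Dicer ΔMT/ΔMT oocytes, which lack the main retrotransposon-derived promoter on both alleles, differed from wild type in 2 of the 9 members, against 15.4% of all genes. Cpeb1 lay at 716.2, 733.7, 792.8 and 749.0 CPM, all below the wild type libraries, with a log2 fold change of -0.32 ± 0.09 (adjusted p = 0.0283). Lsm14b lay at 657.0, 679.5, 769.0 and 732.6 CPM, also all below wild type, with a log2 fold change of -0.28 ± 0.08 (adjusted p = 0.0470). Both calls were lost whichever of the 7 libraries was left out, with values from -0.34 to -0.28 for Cpeb1 (adjusted p 0.0530 to 0.105) and from -0.31 to -0.24 for Lsm14b (adjusted p 0.0587 to 0.157). They were also lost without the filter on low counts (adjusted p = 0.0805 and 0.141).

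Zar1 and Ddx6, called in SOM/SOM, were not called in ΔMT/ΔMT. Zar1 lay at 512.7, 428.3, 458.7 and 503.2 CPM, which overlapped with wild type at its upper end (log2 fold change -0.13 ± 0.11, adjusted p = 0.482). Ddx6 lay at 68.54, 49.86, 37.82 and 64.14 CPM, on both sides of the wild type libraries (0.12 ± 0.20, adjusted p = 0.739). Dazl lay at 440.7, 481.9, 389.6 and 339.3 CPM, with 3 of 4 libraries above the wild type range and 1 below it (0.14 ± 0.11, adjusted p = 0.423).

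The direct comparison of the homozygous genotypes called 1 member, Dazl, against 7.35% of all genes. The SOM/SOM libraries, at 287.5 to 317.7 CPM, were all below the ΔMT/ΔMT libraries, and the log2 fold change was -0.45 ± 0.11 (adjusted p = 0.0307). The call was lost without ΔMT/ΔMT replicate 1 (-0.42, adjusted p = 0.0832) or 2 (-0.37, adjusted p = 0.0831) and without SOM/SOM replicate 1 (-0.45, adjusted p = 0.0750) or 2 (-0.43, adjusted p = 0.0715), and in a fit of these 2 groups alone (-0.45, adjusted p = 0.0706).

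The 2 genotypes also did not overlap for Zar1, Zar1l, Lsm14b and Ddx6, and the test was not passed for any of these. How many of all genes were separated in this way was not counted. Zar1 (-0.33 ± 0.11, adjusted p = 0.102), Zar1l (-0.30 ± 0.11, adjusted p = 0.125) and Lsm14b (-0.23 ± 0.08, adjusted p = 0.120) were at lower values in SOM/SOM, and Ddx6 (0.63 ± 0.20, adjusted p = 0.0811) at higher. With DESeq2, Zar1 (-0.33, adjusted p = 0.0491) and Ddx6 (0.62, adjusted p = 0.0145) passed. Cpeb1 was at 748 ± 32.8 CPM in ΔMT/ΔMT and 743 ± 92.1 CPM in SOM/SOM, with a log2 fold change of 0.00 ± 0.09.

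The single Dicer ΔMT/WT library gave values without a replicate. It lay within or above the wild type range for Cpeb1 (938.8 CPM), Zar1 (583.2 CPM), Zar1l (171.6 CPM) and Eif4enif1 (1071 CPM), and below it for Lsm14b (697.4 CPM), Ddx6 (33.98 CPM), Dazl (338.3 CPM), Ybx2 (132.4 CPM) and Patl2 (30.20 CPM).

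**Figure D3:**
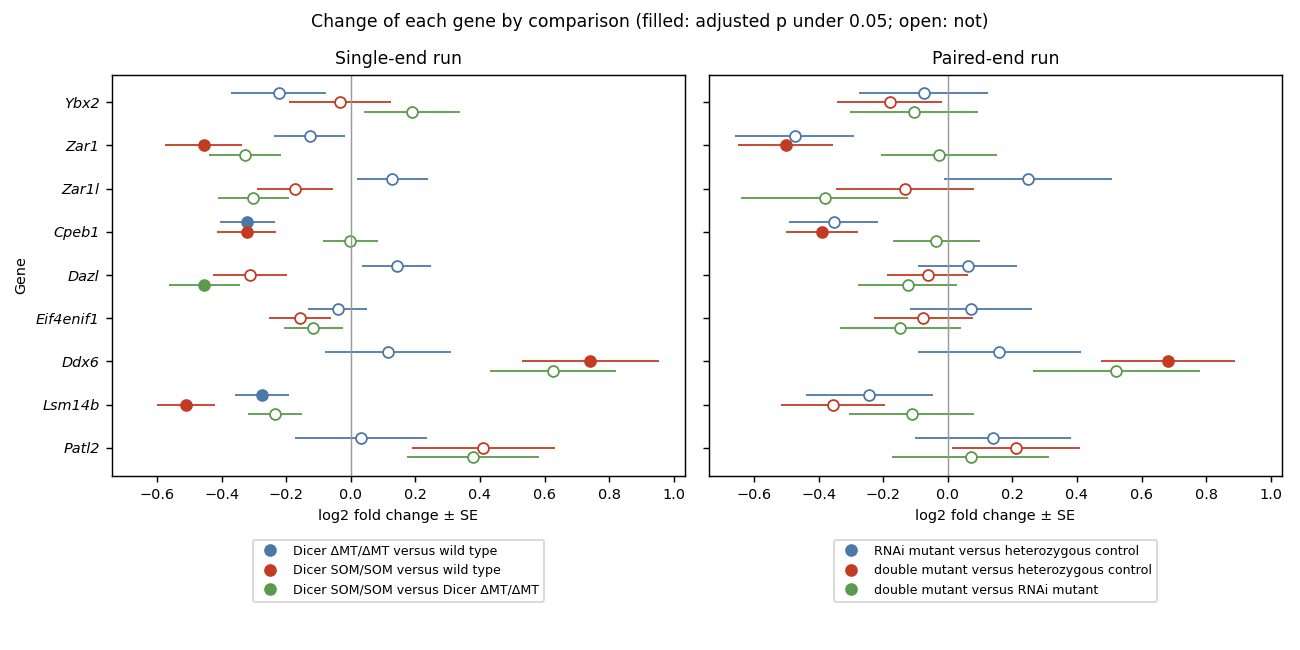
Log2 fold change ± SE of each gene in the 3 comparisons of the single-end run (left) and of the paired-end run (right). Filled points have an adjusted p under 0.05 and open points do not. Zar1 and Cpeb1 lie left of 0 and Ddx6 right of 0 in both SOM/SOM against wild type and double mutant against heterozygous control.

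In the paired-end run the libraries differed in a further way that touches some members. The ribosomal RNA marker Gm42418 was above 1000 CPM in 6 of the 11 libraries (double mutant 1 and 3, both RNAi mutants and heterozygous control 1 and 4). It was below 1000 CPM in 5 (double mutant 2 and 4, the piRNA mutant and heterozygous control 2 and 3). Zar1l was the only member whose ranges did not overlap, with 134.6 to 148.1 CPM in the former and 79.63 to 113.7 CPM in the latter. How many of all genes split in this way was not counted. For the other 8 members the ranges overlapped. Eif4enif1 had a median of 1062.5 CPM in the former and 864.4 CPM in the latter, and Ybx2 medians of 116.9 and 86.98 CPM. Both RNAi mutant libraries belonged to the former set. With a term for the 2 sets in the edgeR fit, the same number of members was called in double mutants against controls (3) and in RNAi mutants against controls (0), and the values within each set are given below.

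**Figure D4:**
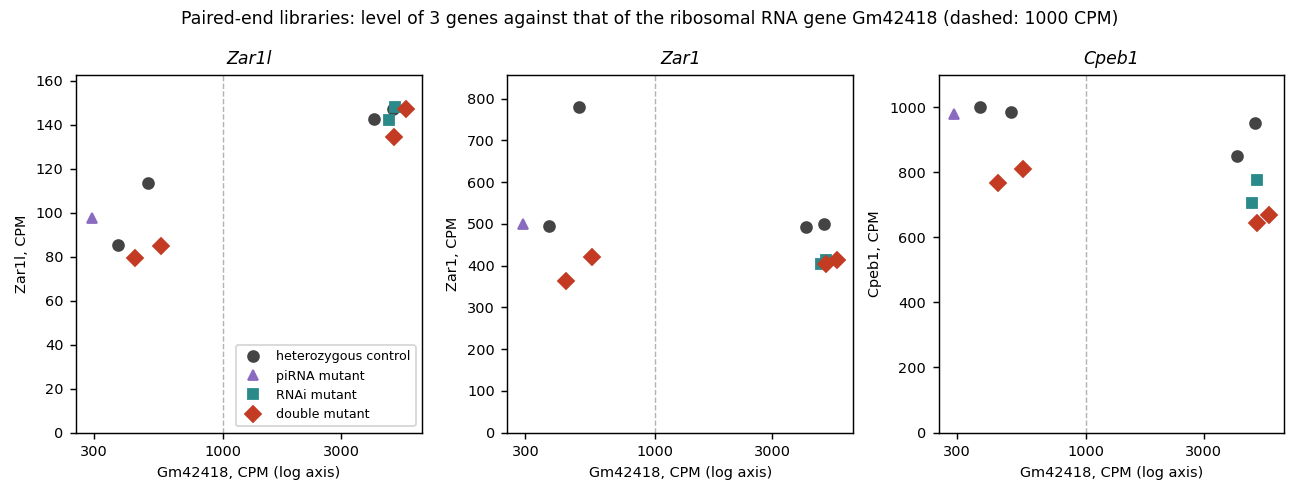
CPM of Zar1l, Zar1 and Cpeb1 in the 11 paired-end libraries against the CPM of the ribosomal RNA marker Gm42418 (log axis). Symbols show the genotypes and a dashed line lies at 1000 CPM. Zar1l was at 134.6 to 148.1 CPM in libraries right of the line and at 79.63 to 113.7 CPM left of it. Cpeb1 was lower in the double mutants than in the controls on both sides, which follows from their lack of overlap.

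The comparison of double mutants with heterozygous controls called 3 members, against 21.2% of the 20989 genes tested. Zar1 and Cpeb1 were lower and Ddx6 was higher. The median log2 fold change of the members was -0.13, against 0.00 for all genes.

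Zar1 was at 498.7, 495.6, 779.8 and 493.6 CPM in the heterozygous controls and at 413.4, 419.8, 404.8 and 363.6 CPM in the double mutants. The groups did not overlap, and control replicate 3, from a 10-week-old animal, stood far above the other 3. The log2 fold change was -0.50 ± 0.15 (adjusted p = 0.0260), and without that library it was -0.30 (adjusted p = 0.0388). The call was lost without double mutant replicate 2 (-0.52, adjusted p = 0.0557), 3 (-0.50, adjusted p = 0.0548) or 4 (-0.46, adjusted p = 0.0709), and in animals under 30 weeks alone (-0.72, adjusted p = 0.0709). Within the libraries above 1000 CPM of Gm42418 the double mutants lay 0.28 below the controls on the log2(CPM + 1) scale, with means of 409 and 496 CPM, and in the set under it the means were 392 and 638 CPM.

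Cpeb1 was at 951.5, 999.8, 983.6 and 848.4 CPM in the controls and at 668.8, 809.5, 643.1 and 766.4 CPM in the double mutants, without overlap. The log2 fold change was -0.39 ± 0.11 (adjusted p = 0.0213). In the set above 1000 CPM of Gm42418 the means were 656 CPM in double mutants and 900 CPM in controls, and in the other set they were 788 and 992 CPM. Leaving out double mutant replicate 1 (-0.35, adjusted p = 0.0613) or 3 (-0.34, adjusted p = 0.0689) or heterozygous control replicate 2 (-0.36, adjusted p = 0.0518) ended the call, as did a fit of the animals under 30 weeks alone (-0.37, adjusted p = 0.229).

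Ddx6 was at 57.29, 89.12, 70.48 and 94.56 CPM in the controls and at 138.2, 164.9, 117.1 and 78.99 CPM in the double mutants. The groups overlapped through the fourth double mutant, and the log2 fold change was 0.68 ± 0.21 (adjusted p = 0.0312). The 2 double mutants of 35 and 40 weeks had the highest values, so that the means were 152 CPM in double mutants and 73.2 CPM in controls of 30 weeks or more, and 98.0 and 82.5 CPM in the younger animals. The means were 128 CPM in double mutants and 75.9 CPM in controls in the set above 1000 CPM of Gm42418, and 122 and 79.8 CPM in the other. In a fit of the animals under 30 weeks alone the value was 0.26 (adjusted p = 0.573), while with a term for age it was 0.65 (adjusted p = 0.0410). The call was lost without double mutant replicate 1 (0.63, adjusted p = 0.0729) or 2 (0.53, adjusted p = 0.0996) and without heterozygous control replicate 1 (0.56, adjusted p = 0.0910) or 3 (0.65, adjusted p = 0.0684).

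Lsm14b, lower in SOM/SOM of the single-end run, was at 827.7, 648.0, 518.0 and 619.7 CPM in the heterozygous controls and at 600.5, 591.7, 418.3 and 431.8 CPM in the double mutants. The controls spread widely and overlapped with the mutants, and the log2 fold change of -0.36 ± 0.16 did not pass (adjusted p = 0.137). With a term for age it passed at -0.36 (adjusted p = 0.0325). Patl2 was at 31.64, 31.26, 31.91 and 56.40 CPM in controls and at 47.13, 50.99, 42.35 and 34.36 CPM in double mutants, so that 3 controls lay below all mutants and the fourth above them (0.21 ± 0.20, adjusted p = 0.512). Zar1l, Ybx2, Dazl and Eif4enif1 had values between -0.18 and -0.06 on the log2 scale, and none passed.

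In the RNAi mutants, with 2 libraries, no member was called by edgeR or by DESeq2, against 10.7% of all genes. An unadjusted p under 0.05 was found for 2 members and for 4951 of the 20989 genes tested. The 2 members were Zar1 and Cpeb1. Zar1 was at 413.3 and 402.8 CPM, below all 4 heterozygous controls (log2 fold change -0.47 ± 0.18, adjusted p = 0.129), and Cpeb1 at 776.4 and 703.8 CPM, also below all controls (-0.35 ± 0.14, adjusted p = 0.127). Against the 2 controls of the same Gm42418 set, both had a difference of -0.28 on the log2(CPM + 1) scale. Lsm14b was at 556.4 and 547.5 CPM (-0.24 ± 0.20, adjusted p = 0.516), Ddx6 at 86.05 and 87.82 CPM, inside the control range (0.16 ± 0.25, adjusted p = 0.773), and Zar1l at 148.1 and 142.3 CPM (0.25 ± 0.26, adjusted p = 0.633).

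No member was called between double and RNAi mutants by either tool, against 0.314% of all genes. None had an unadjusted p under 0.05, against 1004 of the 20989 genes tested. Ddx6 (0.52 ± 0.26) and Zar1l (-0.38 ± 0.26) had the values farthest from 0, both with an adjusted p of 1. The piRNA mutant, a single library, was inside the range of the heterozygous controls for Zar1 (499.5 CPM), Cpeb1 (978.4 CPM), Zar1l (97.54 CPM), Eif4enif1 (864.4 CPM) and Lsm14b (526.1 CPM). It was below that range for Ddx6 (43.38 CPM), Ybx2 (80.45 CPM) and Patl2 (30.60 CPM) and above it for Dazl (536.3 CPM).

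Both runs held oocytes with 2 SOM alleles and their own controls, so the change could be compared between runs that share no sample. The control genotypes and the Mili genotype differed between the runs, as did read type. The joint edgeR fit called no member for a difference, against 0.00806% of 24824 genes. In that fit 1 member and 2218 of all genes had an unadjusted p under 0.05. For Zar1 the difference was -0.01 ± 0.23 and for Cpeb1 0.00 ± 0.16 on the log2 scale. Dazl, below the wild type range in the single-end SOM/SOM libraries and at 484.7 and 519.6 CPM in the RNAi mutants against 435.6 to 511.0 CPM in controls, differed by -0.40 ± 0.19 (adjusted p = 0.551 in edgeR). Ddx6 differed by 0.55 ± 0.35 (adjusted p = 0.693) and Zar1l by -0.45 ± 0.30 (adjusted p = 0.710). The standard errors of these 5 differences ran from 0.16 to 0.35, so a change of one run that was moderately larger or smaller than that of the other was not detectable.

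Partners of these proteins gave a wider view of the same machinery. Of 29 listed genes (cap-binding proteins, other Y-box, CPEB, Pumilio, FMR1-family and Staufen proteins, poly(A)-binding proteins and others), 11 were called in SOM/SOM against wild type, 3 higher and 8 lower, with a median of -0.11, where 28.6% of all genes were called and their median was 0.02. The 3 with the largest change were Pabpc1, the somatic cytoplasmic poly(A)-binding protein (0.97 ± 0.21, adjusted p = 0.00529), Cpeb4, a relative of Cpeb1 that acts later in maturation (-0.69 ± 0.09, adjusted p = 0.000206), and Eif4e3, a cap-binding protein of the eIF4E family (-0.66 ± 0.13, adjusted p = 0.00344). In ΔMT/ΔMT against wild type 4 partners were called, all lower, against 15.4% of all genes, and in SOM/SOM against ΔMT/ΔMT 3, 2 of them higher, against 7.35%.

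In double mutants against heterozygous controls 4 of 29 partners were called, 1 higher and 3 lower, against 21.2% of all genes. They included Eif4e3 (-0.55 ± 0.13, adjusted p = 0.00703), the neuronal-type AU-rich element binder Elavl2 (-0.48 ± 0.12, adjusted p = 0.00892) and the double-stranded RNA-binding protein Stau2 (0.42 ± 0.11, adjusted p = 0.0115). No partner was called in RNAi mutants against controls, in double against RNAi mutants or for the difference between runs.

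Of 12 mRNAs listed here as stored for maturation, 5 were called in SOM/SOM against wild type, 2 higher and 3 lower. The median of the 12 was -0.25, and 28.6% of all genes were called. Storage of these mRNAs was not measured. Sycp3, which encodes a component of the synaptonemal complex, rose by 1.90 ± 0.21 (adjusted p = 6.56e-05), Cnot6l, a deadenylase of the CCR4-NOT complex, fell (-0.54 ± 0.14, adjusted p = 0.0168), and Tex19.1, a germ cell protein, rose by 0.47 ± 0.13 (adjusted p = 0.0192). In double mutants 2 of 12 were called, against 21.2% of all genes. These were Sycp3 (1.31 ± 0.18, adjusted p = 0.000165) and Mos (-0.60 ± 0.15, adjusted p = 0.0118), the kinase that keeps the mature egg arrested. ΔMT/ΔMT against wild type had 2 calls of 12, 1 in each direction, against 15.4% of all genes, RNAi mutants 1 lower, against 10.7%, and the remaining comparisons none.

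Markers of other cells were measured beside these changes. In SOM/SOM against wild type 2 of 10 granulosa markers were called, Fshr higher and Cyp19a1 lower, against 28.6% of all genes. The summed level of the 10 was 80.9 to 115 CPM in SOM/SOM and 93.0 to 103 CPM in wild type. In double mutants against controls 2 of 10 were called, Ptgs2 higher and Nr5a2 lower, against 21.2% of all genes. Their summed levels were 91.5 to 125 CPM and 99.7 to 149 CPM. Of 6 blood cell markers, 2 passed the filter in the first comparison and 3 in the second. Beside the same shares of all genes, 1 was called in each, Ms4a1 lower and Ptprc higher. Their sum was 28.8 to 33.6 CPM in SOM/SOM against 48.2 to 50.0 CPM in wild type. Ms4a1 made up nearly all of it, with means of 30.6 and 48.2 CPM. The part of these differences in the members' values was not tested. Among 10 oocyte markers, Kit alone was called, lower in both comparisons, beside the same shares of all genes.

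Across all 22 libraries, with each run centered on its own mean, the members did not move as a unit. Of the 36 pairs of members, 5 had a Pearson correlation of log2 CPM above 0.5 and 3 below -0.5, with a median of 0.02. The shares among pairs of all genes were not counted. Ddx6 and Patl2, the 2 least abundant members, had the highest at 0.80, followed by Zar1 and Cpeb1 at 0.68. These points share libraries, genotype and depth, so the correlations are descriptions.

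Among 7809 genes with a mean of at least 10 CPM in both runs, the gene most like each member over the 22 libraries was taken by the same measure. Each value is the highest found among these genes, so the choice itself raises it, and no test was run. Eif4enif1 went with Bptf (0.961), Cpeb1 with Wdr20 (0.946), Ddx6 with Crebrf (0.941), Zar1l with Npm2 (0.928) and Zar1 with Lsm6 (0.916). Lsm14b went with Taok2 (0.886), Dazl with Ube2w (0.886), Patl2 with Klhl21 (0.883) and Ybx2 with Mbd6 (0.813).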

How the data were processed

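The authors mapped reads with STAR 2.5.3a to mm10 (GRCm38), kept reads with many places, and counted them with featureCounts on GENCODE M15, without strand and with fractions for reads at several places or genes. The deposited values are what the authors obtained in this way, an estimated count per gene and sample (expected count) with no normalization. They were rounded to whole numbers. Each run was fitted alone with edgeR 4.0.16 (R 4.3.3), with TMM normalization, filterByExpr (minimum count 10, minimum total 15), the quasi-likelihood F test and Benjamini-Hochberg adjustment over all tested genes at 0.05; the difference between runs came from 1 joint fit. SE is the log2 fold change divided by the root of F. The Dicer ΔMT/WT library entered no fit. CPM use TMM library sizes, and RPKM divide them by the deposited exon length. Partners and stored mRNAs were named only as the 3 called genes with the largest change in SOM/SOM and double mutant contrasts. The members, lists and tests were chosen with earlier results of these data known. The test was tried on simulated data with 200 genes shifted by 1.5 on the log2 scale, of which it found 186 for Dicer SOM/SOM against wild type (22638 genes) and 182 for double mutants against controls (20213 genes). The changes of the members were all smaller than this shift, and recovery of changes of their size was not tried. At the lowest depth, 3 counts correspond to 0.464 CPM. Alternatives were DESeq2 1.42.0, other size factors, filters and samples, a replicate block, age and Gm42418 terms. A list of retrotransposon groups was not used here.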

Additional observations from a re-analysis of the deposited data

Results flagged for a closer look

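In 27 groups of 4 libraries (9 genes in 3 genotypes) the highest and lowest library were set against the others by Dixon's test, which chance passes in about 1 of 20 groups. There were 2 such libraries. Zar1 was at 779.8 CPM in heterozygous control replicate 3, with a gap to the next library of 0.982 of the group's range. Patl2 was at 56.40 CPM in heterozygous control replicate 4, with a gap of 0.974 of the range. Without the former, Zar1 in double mutants against controls changed from -0.50 to -0.30 and was still called (adjusted p = 0.0388). Without the latter, Patl2 changed from 0.21 to 0.47 (adjusted p = 0.0553).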

How the results depend on the processing

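Of 226 values of single genes under other settings, 203 kept their direction and their side of the threshold. Of 44 counts of members called, 37 were equal or close to the main count, by a rule that takes 2 and 3 as alike. Without a filter on low counts, 0 members were called in ΔMT/ΔMT against wild type, and the difference between runs was -0.026 for Cpeb1. With a filter at a mean of 5 CPM, 2 members were called in SOM/SOM against ΔMT/ΔMT, where Cpeb1 was at 0.032, and Ybx2 was at 0.041 in SOM/SOM against wild type. DESeq2 called 3 in SOM/SOM against ΔMT/ΔMT, and a fit of those 2 groups alone called 0, with Cpeb1 at 0.00. In animals under 30 weeks alone, 0 were called in double mutants against controls, and Patl2 was at -0.19. With a term for the Gm42418 level, Zar1l was at -0.058 in RNAi mutants. With other size factors, the difference between runs was 0.067 for Zar1. The causes were not tested.

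Single-end labels share replicate numbers. Deviations of same-numbered libraries correlated at -0.0277 to 0.111 over 9 pairs, so the numbers were not taken as pairing. With a replicate block, 0 members were called in ΔMT/ΔMT against wild type, 5 in SOM/SOM against wild type (Dazl added) and 2 in SOM/SOM against ΔMT/ΔMT (Ddx6 added).

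When each library was left out, the members called numbered 0 to 0 in ΔMT/ΔMT against wild type, 2 to 4 in SOM/SOM against wild type, 0 to 1 in SOM/SOM against ΔMT/ΔMT and 1 to 3 in double mutants against controls. Values that changed sign were Ybx2 in SOM/SOM (-0.23 to 0.067), Ddx6 in ΔMT/ΔMT (-0.0058 to 0.28), Cpeb1 in SOM/SOM against ΔMT/ΔMT (-0.11 to 0.046), and the differences between runs for Zar1 (-0.21 to 0.13) and Cpeb1 (-0.072 to 0.13). Depth limited Dicer SOM/SOM replicate 3 most.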
